A study of Mus musculus with 32 samples.

Results

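Potassium channels let potassium ions leave or enter the cell along their gradient and so set the resting potential and end each heartbeat's action potential. Inward rectifiers hold the resting potential, and some of them open in response to acetylcholine or to a fall in cellular ATP. Voltage-gated channels carry the outward currents of repolarisation, and accessory subunits change the gating, amount or location of the pore they bind.

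The genes described here are those whose name on the array starts with Kcn, together with Abcc8 and Abcc9, which encode the sulfonylurea receptors of ATP-sensitive potassium (KATP) channels, and Dpp6, a partner of the Kv4 channels. They number 98 genes on 141 probes, of 36409 gene names on 55681 probes of the array. RNA of single hearts from C57BL/6 mice was hybridised to 32 1-colour arrays, 1 mouse to an array. Stressed mice spent 6 hours a day in a mesh box within an aggressor's cage, with short attacks, for 5 days (T5) or 10 days (T10), a laboratory model of posttraumatic stress disorder. The rest that followed lasted 1 day (R1), 10 days (R10) or 42 days (R42). Each of the 4 conditions, T5R1, T5R10, T10R1 and T10R42, had 4 stressed mice and its own 4 controls, which sat in mesh boxes in a cage without an aggressor. Ages and sexes of the mice were not among the labels used here.

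Levels are log2 signal relative to the 75th percentile of the array, and changes are stressed minus control on that log2 scale with the standard error (SE) of limma, n = 4 mice per arm. A gene was called where limma's Benjamini-Hochberg adjusted p over all 27532 genes tested was below 0.05. Of the 98 genes, 74 had a probe well above background on at least 3 of 4 arrays of some group and were tested, 48 of them above background on all 32 arrays with the probe used. By role, 15 of 17 inward rectifier and KATP genes, 29 of 40 voltage-gated pore genes, 12 of 18 accessory subunit genes, 11 of 14 two-pore domain genes, 6 of 8 calcium- or sodium-activated genes and Kcnq1ot1, a noncoding transcript of the Kcnq1 locus, were tested. The other 24 were not, among them Kcne1 and Kcne2, partners of Kcnq1 and Kcnh2, whose probes were above background on 0 of 32 arrays. Because a dim gene entered only through a group in which it was above background, the counts below are over tested genes, not over all 98.

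The arrays had 28792 to 40672 probes well above background, and arrays of a group correlated at 0.9821 to 0.9943. Each slide carried the 8 arrays of a single condition, and slide and condition therefore cannot be told apart. Among control hearts alone, the mean level of a potassium channel gene ranged over a median of 0.62 log2 units between slides, and over more than 1 unit for 22 of the 74 genes. Kcne1l, a small accessory subunit, had control means of -1.80 in T5R1 and 0.23 in T5R10. Stress effects were therefore compared only as differences of stressed and control arrays of the same slide. On each slide the controls lay in the first columns and the stressed mice in the others, so array column and stress cannot be told apart. Replicates 1 and 3 of each group lay in slide row 2, and replicates 2 and 4 in row 1. A difference between these replicates and slide row therefore cannot be told apart. In whole-heart RNA, fewer cells of a type and less RNA per cell cannot be told apart either.

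The sequences that bear on the main result are those of the acetylcholine-activated channel and the KATP pore, whose genes gave lower signals in T5R1. Shown first are probes, 60 bases long and read 5′ to 3′ on the transcript's strand, from the array files, with positions on mm9. The Kcnj3 probe (chr2:55290214-55290273, plus strand) and the Kcnj11 probe (chr7:53354095-53354154, minus strand) are the second probes of those genes, which test the direction apart from the probe used in the fit. Capitals mark the stop codon at the end of the Kcnj11 probe. The Kcne3 probe (chr7:107332867-107332926, plus strand) is the one used for that gene, where the other probe gave a larger change.
Kcnj3: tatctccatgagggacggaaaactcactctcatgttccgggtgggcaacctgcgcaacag
Kcnj11: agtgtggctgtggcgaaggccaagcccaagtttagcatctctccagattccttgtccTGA
Kcne3: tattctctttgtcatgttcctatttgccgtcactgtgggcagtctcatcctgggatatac

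Kcnj3 and Kcnj5 encode the subunits that join in the acetylcholine-activated channel, and both were called lower in T5R1, so the 250 bases before their RefSeq start (build GRCm38.p6) are shown as well. The Kcnj3 stretch is chr2:55435720-55435969 on the plus strand and the Kcnj5 stretch chr9:32344345-32344594 on the minus strand. Their GC content was 58.4% and 58.0%. Capitals mark matches, on either strand, to any of 8 short motifs.
Kcnj3: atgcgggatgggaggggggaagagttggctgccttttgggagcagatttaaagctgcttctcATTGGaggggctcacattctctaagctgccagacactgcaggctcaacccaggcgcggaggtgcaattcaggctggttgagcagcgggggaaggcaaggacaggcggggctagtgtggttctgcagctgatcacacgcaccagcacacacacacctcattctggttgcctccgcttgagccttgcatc
Kcnj5: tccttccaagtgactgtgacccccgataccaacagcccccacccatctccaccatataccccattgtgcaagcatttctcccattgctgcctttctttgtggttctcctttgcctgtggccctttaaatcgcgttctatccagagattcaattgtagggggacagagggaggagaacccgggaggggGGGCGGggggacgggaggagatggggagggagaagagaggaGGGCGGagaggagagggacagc

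Kcnj3 had 1 match, to CCAAT on the opposite strand 188 bases before the start, and Kcnj5 had 2, to GGGCGG at 63 and 22 bases before the start. These are common letters: CCAAT was found in 33.8% and GGGCGG in 32.7% of 32851 RefSeq promoters of the same length. The other motifs, with no match in either stretch, were TATAAA (12.4% of promoters), CACGTG (6.0%), AAGGTCA (4.1%), AGAACA (16.1%), AGATAA (10.0%) and TGACGTCA (1.5%). The stretches shared no motif. RefSeq promoters were at hand for 56 of the 74 tested genes.

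The comparison of stressed and control hearts in the shorter exposure with the shortest rest (T5R1) gave nearly all of the changes in potassium channel genes. Among the lower ones were the genes of the acetylcholine-activated channel (Kcnj3, Kcnj5), of the KATP channel (Kcnj11, Abcc8, Abcc9), voltage-gated and silent pore subunits (Kcna1, Kcna7, Kcng2, Kcnv2), the Kv4 partner Dpp6, the two-pore channel gene Kcnk4 and the sodium-activated Kcnt1. Higher were Kcnj14 and Kcne3. Of 74 genes tested 15 were called (20.3%), against 13.7% of all genes. The 13 lower calls were 17.6% of the tested potassium channel genes, against 8.43% of all genes, and the 2 higher calls 2.7%, against 5.30%. No test compared these shares. All 4 stressed hearts lay below all 4 controls for each of the 13 lower calls. In T5R1 this was so for 21 of the 74 tested genes, and for 4317 of all 27532 genes. In T5R10, T10R1 and T10R42 it was so for 2, 4 and 6 of the 74, and for 890, 1508 and 2009 of all genes. Stressed hearts lay above all controls in T10R1 for 1 of the 74, and for 1183 of all genes. Under each of 20 alternative settings 10 of the 15 calls held, those of Kcnj3, Kcnj11, Abcc8, Dpp6, Kcna1, Kcna7, Kcng2, Kcnv2 and Kcnk4 among them.

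Scaled signals were lower in T5R1 over much of the array, and how much depended on the scaling. The 75th percentile used to scale an array was 345.9 to 385.8 in T5R1 controls. It was 498.9, 498.7, 346.4 and 418.3 in stressed replicates 1 to 4. The median change was -0.23 over the 74 genes and -0.12 over all genes. With quantile normalisation the medians were -0.12 and -0.03, and with the authors' values -0.08 and -0.02. Likewise 61.4% of all calls were lower, against 36.5% under quantile normalisation and 38.7% with the authors' values, whereas the potassium channel calls were split 13 lower and 2 higher, 13 and 2, and 12 and 3. Measured signals were lower for 56, 46 and 48 of the 74 genes (75.7%, 62.2% and 64.9%), against 66.6%, 54.4% and 54.8% of all genes. Changes in T5R1 are therefore to be read beside the shift of all genes.

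**Figure D1:**
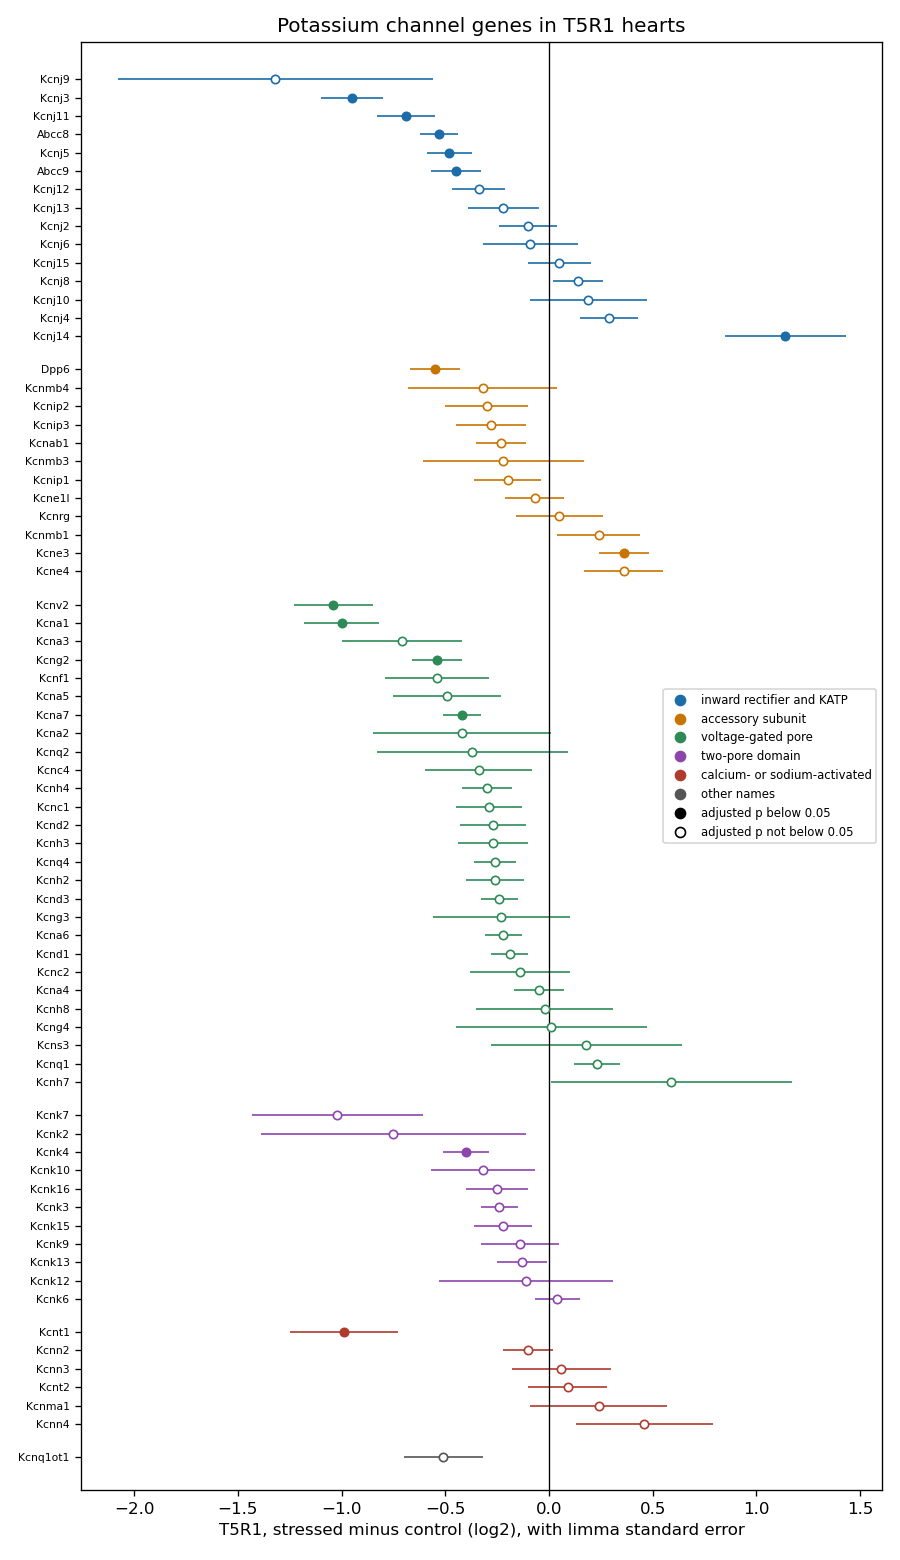
Change in T5R1 (horizontal axis, stressed minus control, log2) of 72 of the 74 tested potassium channel genes, grouped by role, with bars for limma's SE (4 stressed and 4 control mice); filled points had an adjusted p below 0.05. The 12 lower calls plotted lie between -1.04 and -0.40, spread over 5 of the roles, and the 2 higher calls are Kcnj14 and Kcne3.

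Kcnj3 encodes Kir3.1, a subunit of the channel that slows the heart when the vagus nerve releases acetylcholine. Its levels were 0.05, -0.19, -0.09 and -0.31 in T5R1 control hearts and -1.40, -0.77, -1.39 and -0.78 in stressed hearts. All 4 stressed hearts lay below all 4 controls, and stressed replicates 1 and 3 were the lowest. Kcnj3 fell by 0.95 ± 0.15 (SE), a 1.93-fold decrease, with a limma adjusted p of 0.000162. Its second probe, the one printed above, fell by 0.82 ± 0.15 when every probe was fitted as a row of its own (limma adjusted p = 0.000908).

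Kcnj5 encodes Kir3.4, with which Kir3.1 forms that channel. Levels were 3.88, 3.75, 3.84 and 3.81 in controls and 3.21, 3.68, 2.99 and 3.48 in stressed hearts, again with replicates 1 and 3 lowest and no overlap of the arms. Kcnj5 fell by 0.48 ± 0.11 (limma adjusted p = 0.00603), but did not pass when the 8 T5R1 arrays were fitted alone (adjusted p = 0.0727). The Kir3 genes Kcnj9 and Kcnj6 had changes of -1.32 ± 0.76 and -0.09 ± 0.23 and were not called, the latter above background on 0 control and 1 stressed array.

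The KATP channel closes when ATP is plentiful. Its pore is made of Kir6.2 (Kcnj11) or Kir6.1 (Kcnj8) and its regulatory subunit is SUR1 (Abcc8) or SUR2 (Abcc9), and the genes lie in neighbouring pairs: the probes used map on mm9 to chr7:53353119-53353178 for Kcnj11 and chr7:53359908-53359967 for Abcc8. Kcnj11 levels were 2.17, 2.00, 1.97 and 1.95 in controls and 1.37, 1.48, 0.97 and 1.50 in stressed hearts. Kcnj11 fell by 0.69 ± 0.14 (limma adjusted p = 0.00133). The arms did not overlap, and the second probe, which ends at the stop codon, had a change of -0.51 ± 0.24 that did not pass (adjusted p = 0.164).

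Its neighbour Abcc8 had levels of 4.22, 4.02, 4.05 and 4.0 in controls and 3.48, 3.77, 3.34 and 3.58 in stressed hearts. Abcc8 fell by 0.53 ± 0.09 (limma adjusted p = 0.00021), and its second probe, which overlaps the first, by 0.54 ± 0.10. Abcc9 levels were 4.41, 4.43, 4.52 and 4.28 in controls and 3.70, 3.80, 4.15 and 4.20 in stressed hearts, where the arms came close without overlap. Abcc9 fell by 0.45 ± 0.12 (limma adjusted p = 0.0138), but did not pass without stressed replicate 1 (-0.36, adjusted p = 0.0736) or with T5R1 fitted alone (adjusted p = 0.0662). Its genomic neighbour Kcnj8 was not called, with overlapping arms and a change of 0.14 ± 0.12.

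Among the classical inward rectifiers, which hold the resting potential of the ventricle, none was called lower in T5R1. Kcnj2 (Kir2.1) had a change of -0.10 ± 0.14, Kcnj12 (Kir2.2) of -0.34 ± 0.13 and Kcnj4 (Kir2.3) of 0.29 ± 0.14, with adjusted p of 0.67, 0.0921 and 0.156. Kcnj4 passed with the authors' values (0.29, adjusted p = 0.0475). Kcnj14 (Kir2.4) was dim: its levels were -5.13, -4.28, -4.38 and -4.63 in controls, 1 of them above background, and -2.15, -3.99, -4.02 and -3.70 in stressed hearts, 3 of them above background. Stressed replicate 1 stood far above the rest.

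Kcnj14 rose by 1.14 ± 0.29 with this probe (limma adjusted p = 0.00938), and by 0.70 without stressed replicate 1 (adjusted p = 0.0472). Its second probe had a change of -0.02 ± 0.29. The call was lost under normexp background correction (0.22, adjusted p = 0.156), with the mean of both probes (0.56, adjusted p = 0.108) and with T5R1 fitted alone (adjusted p = 0.113).

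**Figure D2:**
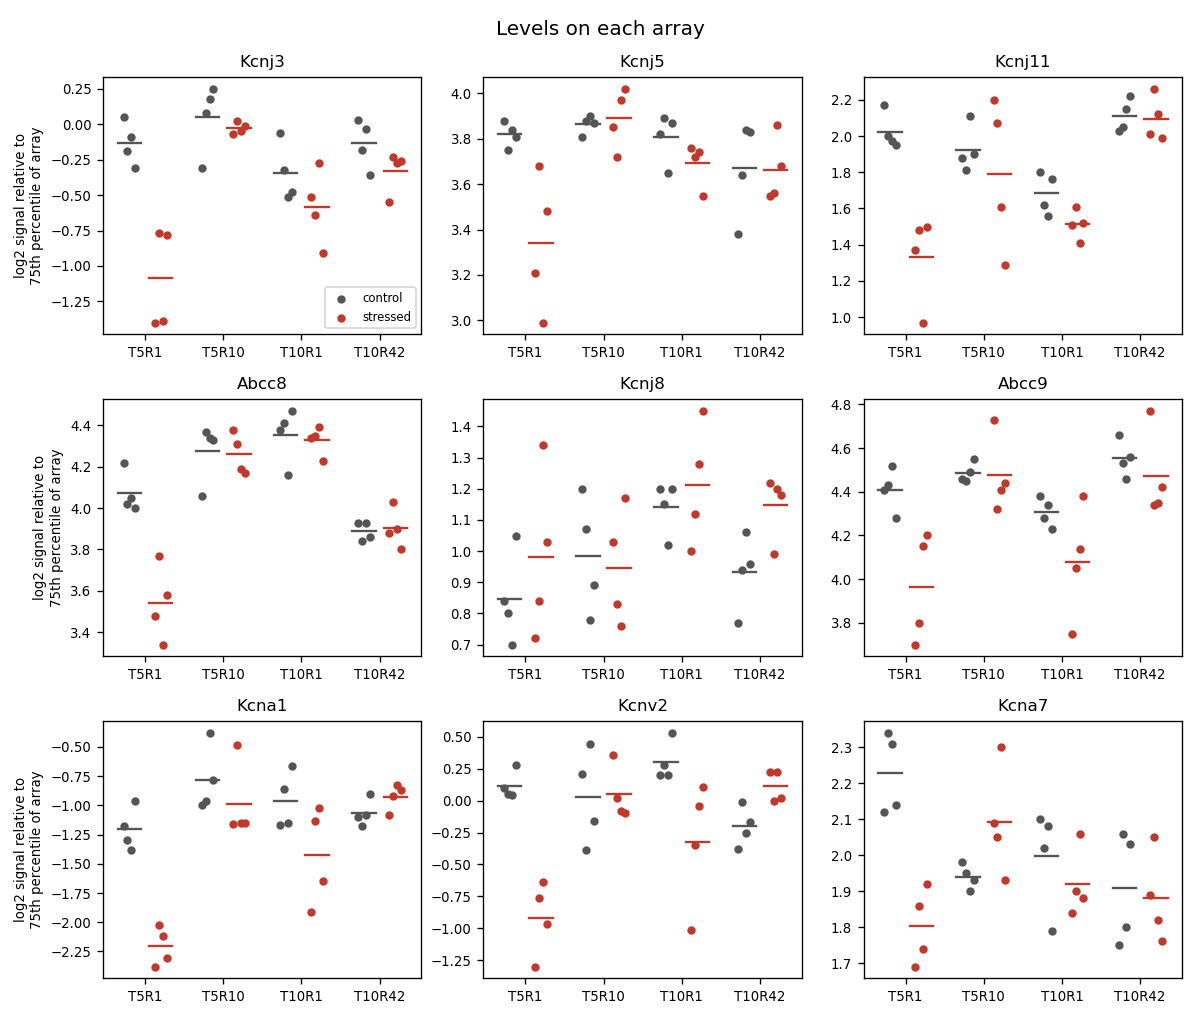
Level on each array (vertical axis, log2 signal relative to the array's 75th percentile, a separate scale for each gene) in control (grey) and stressed (red) hearts of the 4 conditions; lines are means of 4. In T5R1 the stressed hearts lie below all controls for Kcnj3, Kcnj5, Kcnj11, Abcc8, Abcc9, Kcna1, Kcnv2 and Kcna7, and the arms overlap for Kcnj8. Of all 27532 genes, 4317 had the stressed hearts below all controls in T5R1.

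Of the 29 voltage-gated pore genes tested, 5 were called lower in T5R1 and none higher, where 8.43% and 5.30% of all genes were, and their median was -0.27, against -0.12 for all genes. Kcnv2 encodes Kv8.2, a silent subunit that conducts only when joined with other pore subunits. Its levels were 0.10, 0.05, 0.04 and 0.28 in controls and -1.30, -0.76, -0.64 and -0.97 in stressed hearts. It fell by 1.04 ± 0.19, or 2.05-fold (limma adjusted p = 0.000516), and the arms lay well apart.

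Kcna1 encodes Kv1.1, a delayed rectifier best known from nerve axons and also present in heart. Levels were -1.18, -1.30, -1.38 and -0.96 in controls and -2.38, -2.02, -2.12 and -2.31 in stressed hearts, so that the gap between the arms was wider than the spread within either. Kcna1 fell by 1.00 ± 0.18 (limma adjusted p = 0.000402). On mm9 its probe lies on chromosome 6 in the same cluster as Kcna5 and Kcna6, which were not called with the probes used (-0.49 ± 0.26 and -0.22 ± 0.09). A second probe of each did pass, at -0.50 ± 0.12 for Kcna5 and -0.58 ± 0.16 for Kcna6 (limma adjusted p = 0.00885 and 0.0209, every probe a row).

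Kcng2 (Kv6.2), another silent subunit, fell by 0.54 ± 0.12, from 1.38 to 1.64 in controls to 0.79 to 1.23 in stressed hearts (limma adjusted p = 0.00274), but its second probe had a change of -0.25 ± 0.11 that did not pass (adjusted p = 0.115). Kcna7 (Kv1.7) fell by 0.42 ± 0.09, from 2.12 to 2.34 in controls to 1.69 to 1.92 in stressed hearts (limma adjusted p = 0.00262), and its second probe by 0.51 ± 0.12. For neither gene did the arms overlap.

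Several pore genes of repolarising currents of the heart were not called in T5R1. Kcnd2 and Kcnd3 (Kv4.2 and Kv4.3), the fast transient outward current, had changes of -0.27 ± 0.16 and -0.24 ± 0.09, and Kcnip2, the KChIP2 subunit of that channel, of -0.30 ± 0.20. Kcnd3 passed with the slide row as a block (adjusted p = 0.0392) and without stressed replicate 3 (-0.29, adjusted p = 0.0409). Kcna4 (Kv1.4, slow transient outward current) had a change of -0.05 ± 0.12. Kcnq1 and Kcnh2, pores of the slow and rapid delayed rectifiers, had changes of 0.23 ± 0.11 and -0.26 ± 0.14.

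Of 12 accessory subunit genes 2 were called (16.7%), against 13.7% of all genes, 1 lower and 1 higher. Dpp6, an accessory subunit that speeds Kv4 gating, was the lower call. Its levels were -1.60, -1.79, -1.79 and -1.65 in controls and -2.23, -2.28, -2.18 and -2.33 in stressed hearts, tight in both arms and apart. Dpp6 fell by 0.55 ± 0.12 (limma adjusted p = 0.00228).

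Kcne3, a small subunit that modifies Kcnq1 channels, was the higher call. Its levels were -3.20, -3.26, -3.17 and -2.90 in controls and -2.65, -2.60, -2.76 and -3.07 in stressed hearts, and stressed replicate 4 lay within the controls. Kcne3 rose by 0.36 ± 0.12 (limma adjusted p = 0.0429), and its second probe by 1.15 ± 0.22 (limma adjusted p = 0.000918, every probe a row). The first call was lost under 11 of 20 alternatives, among them normexp (0.05, adjusted p = 0.607) and leaving out control replicate 1, 2 or 3 or stressed replicate 1, 2 or 3 (0.30 to 0.36, adjusted p 0.0736 to 0.13).

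Of 11 two-pore domain genes, which carry background currents, 10 were measured lower (90.9%), against 66.6% of all genes. Of the 11, 1 was called, Kcnk4 (9.09%, against 13.7% of all genes). Kcnk4 (TRAAK, a channel opened by stretch of the membrane) had levels of 0.41, 0.62, 0.69 and 0.61 in controls and 0.08, 0.16, 0.27 and 0.22 in stressed hearts. It fell by 0.40 ± 0.11 (limma adjusted p = 0.0126), with no overlap, and its second probe had a change of -0.52 ± 0.20 that did not pass (adjusted p = 0.0938). Kcnk3 (TASK-1), the background channel best known in heart, had a change of -0.24 ± 0.09 that did not pass (adjusted p = 0.0808).

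Of 6 calcium- or sodium-activated genes 1 was called (16.7%), against 13.7% of all genes. Kcnt1 (Slack, a sodium-activated channel) fell by 0.99 ± 0.26 (limma adjusted p = 0.0121). It was dim, above background on 2 control and 1 stressed array, with levels of -4.43, -3.68, -4.04 and -3.91 in controls and -4.83, -4.75, -5.58 and -4.88 in stressed hearts. The call was lost with the authors' values (-0.24, adjusted p = 0.156), without control replicate 2 (-0.88, adjusted p = 0.05) and without stressed replicate 3 (-0.80, adjusted p = 0.0508). Kcnn2, the SK2 gene, had a change of -0.10 ± 0.12, and Kcnma1, the BK gene, one of 0.24 ± 0.33.

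Where a gene had more than 1 probe above background, the probes could be set against each other. This was so for 19 genes, and in T5R1 the probes of 15 of them had changes of the same sign. In 4 genes every probe was called: Kcnj3, Abcc8, Kcna7 and Kcne3. In 2 genes a called probe had a partner of opposite sign, Kcnj14 as above and Kcne1l, whose dimmer probe changed by 1.50 ± 0.34 (limma adjusted p = 0.0051, above background on 19 of 32 arrays) while the brighter one changed by -0.07 ± 0.14. Which of the probes follows the transcript was not tested.

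**Figure D3:**
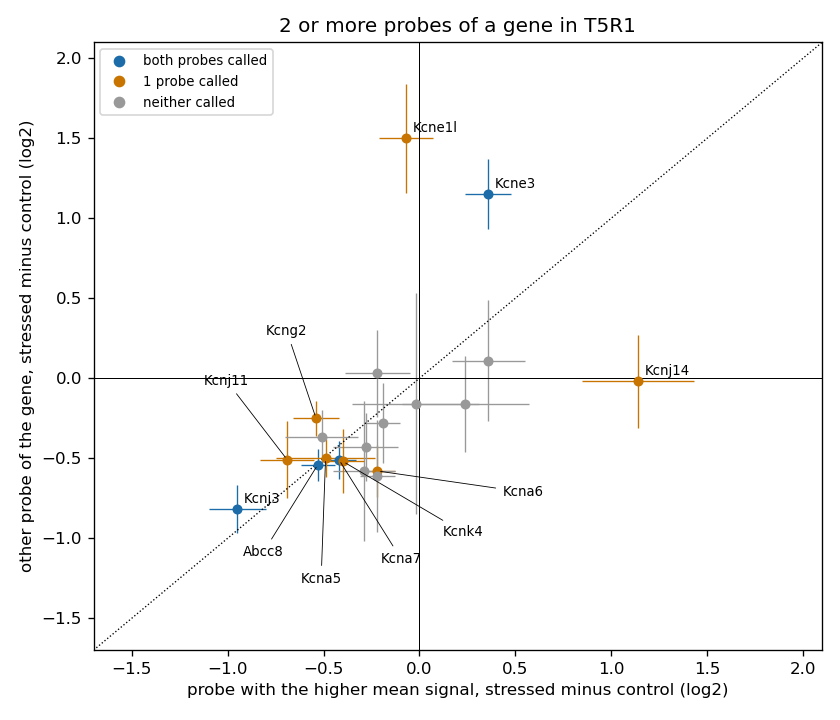
Change in T5R1 (stressed minus control, log2) of the probe used for a gene (horizontal axis) and of each other probe of that gene (vertical axis), for 19 genes, with limma SE; the dotted line marks equal change. Kcnj3, Abcc8 and Kcna7 lie near the line with both probes called lower, whereas Kcnj14 and Kcne1l lie far from it.

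Markers of cell types moved in the same comparison, and their part in the potassium channel results was not tested. Of 6 atrial markers none was called, but all were measured lower, with a median of -0.88, and their summed level was 9.84 to 10.6 in controls and 9.90, 10.25, 9.10 and 9.80 in stressed hearts 1 to 4. The mean log2 level of these markers was 4.56 to 5.22 in controls and 3.86, 4.75, 3.52 and 3.94 in stressed hearts 1 to 4. This mean was lowest in replicates 1 and 3, in which Kcnj3 and Kcnj5 were lowest too, but replicate 4 was close to replicate 1 (3.94 and 3.86). The summed level was instead lowest in replicates 3 and 4. Replicates 1 and 3 shared a slide row, so a difference between hearts and slide row cannot be told apart here. Of 4 conduction system markers tested (of 6 listed, with Hcn4 and Shox2 not tested), 2 were called lower, and the sum was 2.92 to 3.06 in controls and 2.25 to 2.46 in stressed hearts. The sum is weighted to the brightest marker, and the mean log2 level was -1.56 to -1.48 and -2.24 to -1.94. In each arm 1 of the 4 was above background on no array. Of 7 neuron and glia markers 2 were called lower, with sums of 2.97 to 3.17 and 2.57 to 2.92. All 8 cardiomyocyte markers were above background, as the label heart requires, and 1 was called lower (median -0.24, sums of 12.36 to 12.43 and 11.93 to 12.41), while 4 of 6 fibroblast, 5 of 6 macrophage and 4 of 5 dividing cell markers were called higher. So were 3 of 4 erythroid markers (median 2.09), and all 5 adipocyte markers were measured lower (median -1.05) with none called.

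Proteins that bind or regulate these channels were read from a separate list of 24 genes, 22 of them tested. In T5R1, 1 was called higher and 2 lower, together 13.6% of the list, against 13.7% of all genes. Tbx5, a transcription factor of the atria and conduction system, fell by 0.71 ± 0.18 (limma adjusted p = 0.00926), and Dlg1, a scaffold that binds Kv1 and Kir2 channels, by 0.31 ± 0.10 (limma adjusted p = 0.0416). Lrrc55, an auxiliary subunit of BK channels, rose by 0.74 ± 0.24 (limma adjusted p = 0.0392). Of 8 genes of the sodium-potassium pump, which maintains the potassium gradient, 2 were called in T5R1 (25%, against 13.7% of all genes). Both rose, Fxyd5 by 0.65 ± 0.12 and Atp1b3 by 0.34 ± 0.08. The median of the 8 pump genes was -0.06, and 5 were measured lower. No gene of either list was called in T5R10, T10R1 or T10R42.

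With 10 days of rest following the shorter exposure (T5R10), no potassium channel gene passed, where 0.0763% of all genes did. At an unadjusted p below 0.05 there were 11 of 74 (14.9%), against 14.0% of all genes, and the median change was -0.07, against -0.02 for all genes. The 13 genes lower in T5R1 had changes of -0.35 to 0.15 here, with a median of -0.08. Kcnj3, for example, had levels of -0.31, 0.08, 0.18 and 0.25 in controls and -0.07, 0.02, -0.05 and -0.01 in stressed hearts, and Kcnv2 levels of 0.21, -0.39, 0.44 and -0.16 against 0.36, 0.02, -0.08 and -0.10. The arms overlapped for both.

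The smallest p values in T5R10 belonged to Kcng3, Kcnk4, Dpp6, Kcnj14 and Kcnh3, all with an adjusted p above 0.1. Kcng3, a silent subunit, was above background on 3 T5R10 control arrays and no other array, so it entered the test only through the group in which it was high, and nothing is read from its direction. Dpp6 had levels of -1.48, -1.52, -1.51 and -1.39 in controls and -2.09, -1.79, -1.65 and -1.77 in stressed hearts, apart but not called (-0.35 ± 0.12, limma adjusted p = 0.175). The scanner software had marked 3 T5R10 arrays for evaluation, control replicate 4 and stressed replicates 1 and 2. Without them 4 of 74 genes passed, where 3.95% of all genes did: Kcnh3 (Kv12.2) at 0.83, Kcng4 at 1.94, Kcnj11 at -0.49, and Kcng3, with the limit just given. That fit kept only replicates 3 and 4 of the stressed T5R10 hearts. Kcng4 was dim, above background on 3 control and 2 stressed T5R10 arrays. With all arrays Kcnj11 was at -0.14 in T5R10, and its second probe went the other way, at 0.25. Without stressed replicate 1 alone, Kcnh3 passed (0.67, adjusted p = 0.0414), and 0.494% of all genes did.

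In the longer exposure, sampled 1 day later (T10R1), 1 of 74 genes was called, where 1.13% of all genes were. This was Kcna4, the gene of the slow transient outward current, which had not passed in T5R1. Its levels were 3.44, 3.26, 3.42 and 3.38 in controls and 3.08, 3.23, 2.44 and 2.74 in stressed hearts, so that stressed replicate 2 lay just under the controls. Kcna4 fell by 0.50 ± 0.12 (limma adjusted p = 0.0436). The call was lost without any 1 of 7 arrays, that is all but stressed replicate 2 (changes of -0.36 to -0.57, adjusted p 0.0583 to 0.158), and under 5 other settings.

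Kcnv2 and Kcna1, lower in T5R1, were measured lower in T10R1 without passing, as was Kcna5, which had not passed in either. Kcnv2 had levels of 0.20, 0.28, 0.20 and 0.53 in controls and -1.01, -0.35, -0.04 and 0.11 in stressed hearts, apart by a small gap (-0.63 ± 0.19, limma adjusted p = 0.11). Kcna1 had a change of -0.47 ± 0.18 and Kcna5 (Kv1.5, the ultrarapid delayed rectifier) of -0.71 ± 0.26, with overlapping arms and adjusted p of 0.229 and 0.212. Kcnj3 and Kcnj5 had changes of -0.24 ± 0.15 and -0.11 ± 0.11. Kcnj15 (Kir4.2) was measured higher, with levels of -1.80, -2.19, -2.05 and -2.17 in controls and -1.26, -1.73, -1.59 and -1.69 in stressed hearts (0.48 ± 0.15, limma adjusted p = 0.137). The median over the 74 genes was -0.02, and over all genes 0. Of 6 fibroblast markers 4 were called higher in T10R1, with summed levels of 7.96 to 8.06 in controls and 8.38 to 9.01 in stressed hearts, and their part in the Kcna4 result was not tested.

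With 42 days of rest following the longer exposure (T10R42), 1 of 74 genes was called, where 0.897% of all genes were. Dpp6 had levels of -2.19, -1.82, -1.91 and -1.81 in controls and -2.31, -2.16, -2.77 and -2.50 in stressed hearts. Stressed replicate 2 and control replicate 1 overlapped. Dpp6 fell by 0.50 ± 0.12 (limma adjusted p = 0.0348), but the call was lost without any 1 of 6 arrays, that is all but control replicate 1 and stressed replicate 2 (-0.39 to -0.54, adjusted p 0.0515 to 0.154), and the change was -0.24 with the authors' values (adjusted p = 0.189).

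Without stressed replicate 2, 7 of 74 potassium channel genes passed in T10R42, where 5.24% of all genes did, all 7 lower: Dpp6, Kcne3, Kcne1l, Kcnd1, Kcng2, Kcnh4 and Kcnk4. With all arrays Kcne3 had levels of -2.56, -2.46, -2.44 and -2.27 in controls and -2.87, -2.60, -3.02 and -3.07 in stressed hearts, apart in every animal (-0.45 ± 0.12, limma adjusted p = 0.0582). Its second probe had a change of -0.16. Kcnk4 had levels of 0.42, 0.39, 0.44 and 0.21 in controls and -0.03, 0.31, 0.00 and -0.01 in stressed hearts, of which replicate 2 was the high one and overlapped the controls. The genes of the acetylcholine-activated and KATP channels that fell in T5R1 had changes between -0.19 and 0.01 in T10R42, and none passed. The median over the 74 genes was -0.11, and over all genes -0.03.

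**Figure D4:**
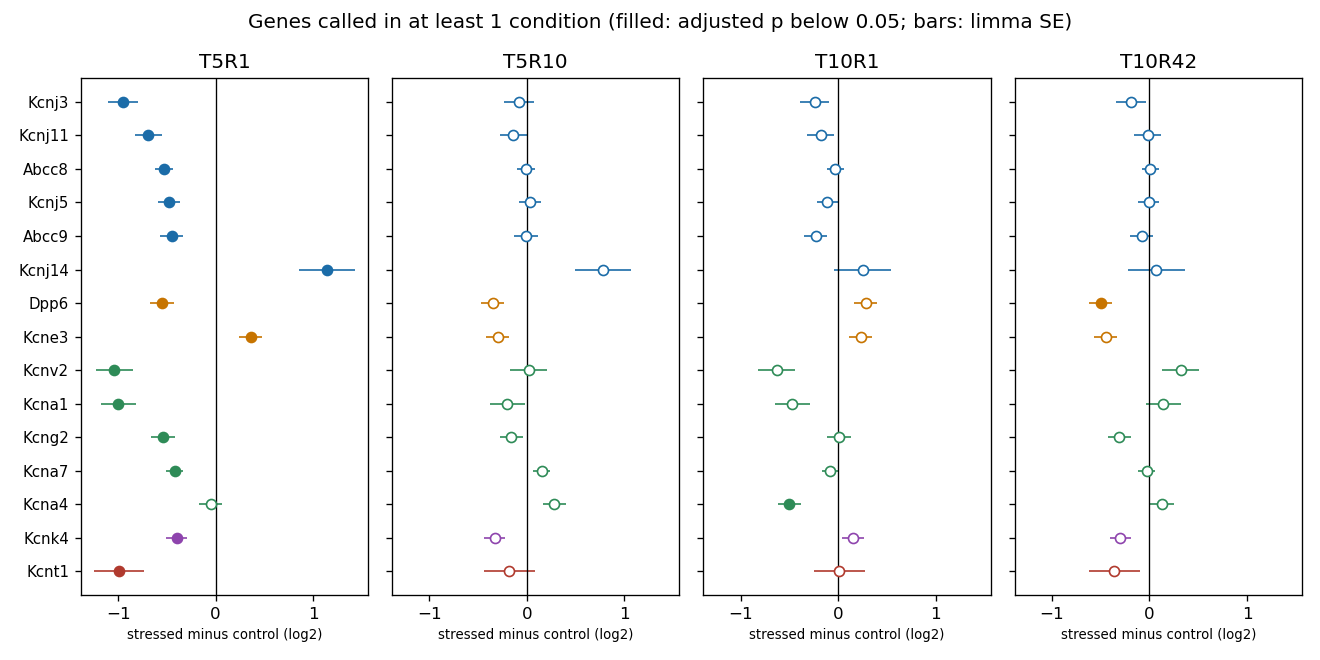
Change (horizontal axis, stressed minus control, log2, with limma SE; 4 stressed and 4 control mice per condition) of 15 potassium channel genes called in at least 1 of the 4 conditions; filled points had an adjusted p below 0.05. There are 14 filled points in T5R1, none in T5R10, Kcna4 in T10R1 and Dpp6 in T10R42.

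Differences between conditions were tested as differences of stress effects, each from its own slide. Between T5R10 and T5R1, 5 of 74 genes were called, where 2.49% of all genes were. The stress effect of Kcnv2 differed by 1.06 ± 0.26 (from -1.04 in T5R1 to 0.02 in T5R10), that of Kcnj3 by 0.87 ± 0.22 (from -0.95 to -0.08), that of Kcna7 by 0.58 ± 0.13 (from -0.42 to 0.15) and that of Abcc8 by 0.52 ± 0.12 (from -0.53 to -0.01). Their limma adjusted p were 0.0307, 0.0303, 0.0146 and 0.0237. For Kcne3 the difference was -0.66 ± 0.17 (from 0.36 to -0.30, limma adjusted p = 0.0346). Its second probe changed by 1.15 in T5R1 and by 0.13 in T5R10.

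For Kcnj11, Kcna1 and Kcnj5 the difference between T5R10 and T5R1 did not pass, at 0.56 ± 0.20, 0.80 ± 0.25 and 0.50 ± 0.16 (limma adjusted p = 0.123, 0.083 and 0.0902). The call of Kcna7 held without any 1 of the 16 arrays. It was lost under quantile normalisation (0.48, limma adjusted p = 0.0553). Like the others, it was also lost with the 16 arrays fitted alone (0.58, limma adjusted p = 0.0515). The second Kcna7 probe changed by -0.51 in T5R1 and by -0.15 in T5R10. Abcc8 lost its call without T5R1 control replicate 1, T5R1 stressed replicate 1 or 3, or T5R10 control replicate 1 (0.45 to 0.50). The call of Kcnj3 was lost without any 1 of 7 arrays, that of Kcnv2 without any 1 of 6 and that of Kcne3 without any 1 of 10.

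Between T10R42 and T10R1, 5 of 74 genes were called, where 4.12% of all genes were. The stress effect of Dpp6 differed by -0.78 ± 0.16 (from 0.28 in T10R1 to -0.50 in T10R42, limma adjusted p = 0.0143), that of Kcne3 by -0.69 ± 0.17 (from 0.23 to -0.45) and that of Kcnj15 by -0.83 ± 0.22 (from 0.48 to -0.34). It differed by 0.94 ± 0.26 for Kcnv2 (from -0.63 to 0.32) and by 0.63 ± 0.18 for Kcna4 (from -0.50 to 0.13). The second probe of Kcne3 changed by 0.17 in T10R1 and by -0.16 in T10R42. With the mean of its probes the Kcne3 call was lost (-0.51, limma adjusted p = 0.141). For Kcnj15 the arms were apart in both conditions, in opposite directions: stressed hearts were the higher ones in T10R1 and the lower ones in T10R42, at -1.39, -1.16, -1.24 and -1.23 against controls of -1.02, -0.89, -0.89 and -0.85. The Dpp6 call held without any 1 of the 16 arrays, and the other 4 did not. With the authors' values the Dpp6 call was lost (-0.45, limma adjusted p = 0.05).

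Between T10R1 and T5R1, which had the same rest and differed in the days of exposure, 1 of 74 genes was called, where 0.592% of all genes were. The stress effect of Dpp6 differed by 0.83 ± 0.16, from -0.55 in T5R1 to 0.28 in T10R1 (limma adjusted p = 0.0316). In T10R1 its levels were -1.97, -2.17, -2.21 and -2.41 in controls and -1.96, -2.07, -1.87 and -1.71 in stressed hearts, which overlapped. The call was lost without T5R1 control replicate 2, T10R1 control replicate 4 or T10R1 stressed replicate 3 or 4 (0.76 to 0.86, adjusted p 0.0622 to 0.0689). For Kcnj3 and Abcc8, which fell in T5R1, the difference did not pass, at 0.71 ± 0.22 and 0.50 ± 0.12 (limma adjusted p = 0.0978 and 0.0552). The T5R1 arrays enter both this comparison and the one with T5R10.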

How the data were processed

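Total RNA of 32 single hearts was labelled with Cy3 and hybridised to 1-colour Agilent mouse arrays. Per the file headers, the deposited intensities are Feature Extraction 10.7.3.1 processed signals, already background-subtracted, beside mean and background signals and the software's own flags (other columns, deposited). The authors' deposited value table holds log2 values, which followed log2 of the mean signal (correlation at least 0.9995 on each array).

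Here the processed signal was taken as log2 minus each array's 75th percentile over non-control spots. Of 55681 probes, 38824 well above background on at least 3 of 4 arrays of a group were kept, and the brightest probe stood for a gene. limma 3.58.1 in R 4.3.3 fitted 8 group means over 32 arrays (24 residual and 2.28 prior degrees of freedom), two-sided, with Benjamini-Hochberg adjustment over 27532 genes and a threshold of 0.05. The fit was tested on simulated data with independent noise and few changed genes. That setting lacks the broad shift of T5R1, so it cannot show how the calls behave under such a shift. No probe value was saturated, and 5470 outlier spots were left out. The number of arrays limits the precision.

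The genes and gene lists were chosen with earlier results of these data known. Genes were named by rule: up to 10 called genes in each direction and condition, the 5 smallest p where fewer than 5 were called, and a list of cardiac channel genes. Kcna7 and Kcnk4 in T5R1, and genes named for a second probe or a left-out array, were added after their values were seen. Replicate numbers follow the order of the samples, and the labels name no pairing of mice across arms. The labels describe separate animals. Alternatives covered background correction, scaling, filters, probes per gene, the authors' values, slide row, replicate number and left-out arrays. Some genes of the set are counted but not reported by name here.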

Additional observations from a re-analysis of the deposited data

Results flagged for a closer look

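In 8 of 198 sets examined, each the 4 arrays of a group for 1 gene, a single array stood apart from the other 3. The distance was judged relative to the spread of the 4. Chance gives about 1 in 20, so 8 is no more than chance gives. In T5R1, Kcnt1 was at -5.58 in stressed replicate 3 (the others -4.88 to -4.75), and Kcnq1 at 3.61 in control replicate 1 (3.27 to 3.31). In T5R10, Abcc8 was at 4.06 in control replicate 1 (4.33 to 4.37). Stressed replicate 1, one of the arrays marked for evaluation, held Kcna5 at 1.53 (0.38 to 0.50). In T10R42, Kcnk4 was at 0.31 in stressed replicate 2 (-0.03 to 0), and Kcnj3 at -0.55 in stressed replicate 1 (-0.27 to -0.23). Control replicate 1 of T10R42 held Kcnd3 at 1.44 (1.65 to 1.67) and the dim Kcnma1 at -5.62 (-4.17 to -3.98).

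Stress effects that differed between conditions by limma's test of the difference were, for T5R10 minus T5R1, those of Kcna7 (0.58), Abcc8 (0.52), Kcnj3 (0.87), Kcnv2 (1.06) and Kcne3 (-0.66). For T10R42 minus T10R1 they were those of Kcna4 (0.63), Kcnv2 (0.94), Dpp6 (-0.78), Kcne3 (-0.69) and Kcnj15 (-0.83), and for T10R1 minus T5R1 that of Dpp6 (0.83). Each condition lay on a slide of its own.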

How the results depend on the processing

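No value changed direction under any alternative while called, and the cause of the shifts below was not tested. The T5R1 count of 15 called genes stayed within 1.5 times under each setting run, at 13 to 17 when 1 array was left out. The T5R10 count of 0 was 4 without the 3 arrays marked for evaluation, and 0 to 1 when 1 array was left out. The T10R1 count of 1 was 0 under quantile normalisation, with no filter, with every probe a row, with the condition fitted alone and with the replicate block, and 0 to 1 when 1 array was left out. The T10R42 count of 1 was 0 under normexp, quantile normalisation, the authors' values, no filter, the condition alone and the replicate block, 2 with probes above background on all arrays and with the 75th percentile over kept probes (a setting chosen after seeing the data), and 0 to 7 when 1 array was left out.

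For T5R10 minus T5R1, 5 calls became 3 under normexp and the replicate block, 2 under quantile normalisation and without the marked arrays, 0 with the 16 arrays alone, and 1 to 8 when 1 array was left out. For T10R42 minus T10R1, 5 became 3 under normexp, with every probe a row and with the replicate block, 2 with no filter, 1 under quantile normalisation, 0 with the authors' values, and 1 to 8 when 1 array was left out. For T10R1 minus T5R1, 1 became 0 under quantile normalisation, no filter and the replicate block, 2 with probes on all arrays, with the 16 arrays alone and without the marked arrays, and 0 to 2 when 1 array was left out.

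Same-numbered arrays of the arms correlated at -0.27 to 0.21 in their deviations and differently numbered ones at -0.22 to 0.22. The correlation was over 0.1 in 5 of 16 same-numbered pairs and in 6 of 48 others. Same-numbered arrays always shared a slide row, so these values cannot show whether the numbers pair the mice. With the replicate block T5R1 still had 15 calls, 14 of them shared. Dim genes such as Kcnj14, Kcnt1 and Kcng3 are limited by signal over background.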
